A study of Mus musculus with 4 samples.

Results

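The protein components of the cytosolic ribosome and their paralogues were examined in mouse T cells. Members were the protein-coding genes whose GENCODE symbol begins with Rpl or Rps and a digit, together with Rpsa, Rplp0, Rplp1 and Rplp2 and without the Rps6k kinases. This rule took 92 of 50600 genes. Of these, 77 encode proteins of the canonical ribosome, 8 are named paralogues, 6 carry "ps" in the symbol, and Rps19bp1 encodes a protein that binds Rps19 and is no part of the ribosome. A further 3 genes of the canonical ribosome fall outside the naming rule, Fau and Rack1 among them. They were added wherever the ribosome is described as a whole, which gave 80 subunit genes, 47 of the large and 33 of the small subunit.

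The samples form 1 group of 4 libraries of primary T cells from C57BL/6NJ mice, numbered as biological replicates 1 to 4, with no treatment or genotype compared. File headers describe the cells as Th0 (stimulated helper T cells not steered to a lineage by cytokines), activated for 16 h, and the differentiation protocol cited is one for CD4+ T cells. The samples share a donor identifier, sex was not collected, age is unknown, and nothing says that they came from separate animals. The p-values below therefore measure the spread between these samples, which may be technical.

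A eukaryotic ribosome joins a small subunit, which reads the mRNA, to a large subunit, which forms peptide bonds. Nearly every ribosomal protein is present once per ribosome, the acidic proteins of the P stalk being the exception, and the mRNAs of these proteins share a 5' terminal oligopyrimidine (TOP) sequence through which growth signals control their translation. T cells leaving quiescence are known for a large increase in ribosome production. In mice, several subunit genes have a paralogue elsewhere in the genome, some used mainly in testis (Rpl10l, Rpl39l) or striated muscle (Rpl3l).

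How closely a paralogue resembles its parent gene sets how many read pairs can be told apart, so coding sequences are shown first for the pairs to which the levels below refer. They are taken from the GENCODE M21 transcripts, read 5′ to 3′ on the gene's own strand, with capitals at bases that differ from the other gene of the pair or have no partner in the alignment. Rpl39 (X, 37082520 to 37085402, minus strand, mm10) and Rpl39l (chromosome 16, 10170226 to 10174911, plus strand) encode a very small protein that lines the exit tunnel. Their coding sequences of 156 bases were identical at 133 positions (85.3%).
Rpl39: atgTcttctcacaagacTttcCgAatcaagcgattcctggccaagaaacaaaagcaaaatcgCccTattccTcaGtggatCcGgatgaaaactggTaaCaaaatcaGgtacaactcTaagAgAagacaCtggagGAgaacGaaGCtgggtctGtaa
Rpl39l: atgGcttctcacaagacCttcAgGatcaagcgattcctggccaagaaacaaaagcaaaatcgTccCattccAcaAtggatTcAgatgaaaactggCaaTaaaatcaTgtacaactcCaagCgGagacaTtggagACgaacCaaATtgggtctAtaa
Rps27 (chromosome 3, 90212522 to 90213651, minus strand) and Rps27l (chromosome 9, 66946086 to 66949516, plus strand) encode a zinc finger protein of the small subunit. They differed at 61 of 255 positions, with no identical stretch above 11 bases.
Rps27: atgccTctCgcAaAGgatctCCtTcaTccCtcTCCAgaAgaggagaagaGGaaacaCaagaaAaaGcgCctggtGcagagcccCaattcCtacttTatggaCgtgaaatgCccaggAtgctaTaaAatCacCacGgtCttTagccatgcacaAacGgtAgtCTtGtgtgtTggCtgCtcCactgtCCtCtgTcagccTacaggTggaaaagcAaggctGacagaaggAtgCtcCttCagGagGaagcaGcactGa
Rps27l: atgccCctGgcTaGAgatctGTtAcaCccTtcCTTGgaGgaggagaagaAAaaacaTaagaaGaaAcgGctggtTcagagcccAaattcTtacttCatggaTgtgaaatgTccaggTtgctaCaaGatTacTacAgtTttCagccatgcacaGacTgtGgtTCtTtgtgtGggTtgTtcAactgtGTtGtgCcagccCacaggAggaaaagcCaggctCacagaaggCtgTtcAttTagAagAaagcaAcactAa
Rpl22 (chromosome 4, 152325742 to 152334071, plus strand), which mice need for normal development of alpha-beta T cells, and Rpl22l1 (chromosome 3, 28805436 to 28807424, plus strand) were identical at 259 of 366 aligned positions (70.8%). The first 180 coding bases of each are shown.
Rpl22: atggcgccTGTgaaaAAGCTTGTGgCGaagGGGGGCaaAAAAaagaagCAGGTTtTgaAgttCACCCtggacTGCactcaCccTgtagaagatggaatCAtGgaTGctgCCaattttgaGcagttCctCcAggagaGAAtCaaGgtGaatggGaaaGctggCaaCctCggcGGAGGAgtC
Rpl22l1: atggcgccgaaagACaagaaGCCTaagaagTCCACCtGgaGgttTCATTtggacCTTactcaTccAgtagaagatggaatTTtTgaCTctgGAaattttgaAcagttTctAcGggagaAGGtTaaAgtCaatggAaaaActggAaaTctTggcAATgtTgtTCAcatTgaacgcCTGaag

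Libraries held 46192242 to 63313389 counted read pairs. All 10 T cell marker genes examined, Cd4 among them at 749 ± 30.2 TPM (SD, n = 4), were at 1 TPM or more in every library, whereas Cd8a was at 0.776 ± 0.380 TPM and Cd8b1 at 57.5 ± 3.71 TPM. TPM (a length-corrected abundance) is the count over the gene's exonic length in the files, scaled to a fixed total per library. Summed over 6 genes, B cell markers lay between 2.69 and 9.56 TPM, and the 5 neutrophil markers were at 0. Replicate 4 was the lowest library for 3575 of 12285 genes tested (29.1%) and replicate 1 or 2 the highest for 5673 (46.2%), which are the backgrounds for the pattern between libraries described further on.

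Genes of the ribosome were among the most abundant in these cells. The 92 members took 6.52%, 6.54%, 6.20% and 5.81% of all counted pairs in replicates 1 to 4, with a Wilson interval at 95% confidence of 5.80% to 5.81% in replicate 4, the shallowest library. Such intervals cover counting error only. The share in replicate 4 was below those of the other libraries by more than counting error. In bulk libraries, fewer cells of a type and less RNA per cell cannot be told apart. On the TPM scale the 80 subunit genes held 13.8 ± 0.55% of the total (SD, n = 4), and 17.3 ± 0.67% when the length of the longest RefSeq mRNA replaced the exonic length. They supplied 12 of the 20 most abundant protein-coding genes of the nucleus by mean TPM, 29 of the first 50 and 48 of the first 100. By mRNA length these numbers were 15, 33 and 58. Detection was nearly complete: 86 of 92 members reached 1 TPM in every library, against 45.2% of all 21764 protein-coding genes, and the 80 subunit genes all did.

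By exonic length the highest subunit gene was Rplp1, an acidic protein of the P stalk that recruits the GTPase factors of translation. It had 10024, 10795, 9892 and 8908 TPM in replicates 1 to 4. Rpl8, which contacts the peptidyl transferase centre, followed with 8723, 8962, 8444 and 8135 TPM. In both genes replicate 2 was highest and replicate 4 lowest. Rplp0, the base of the P stalk, stood at 6284, 6410, 6286 and 6101 TPM. The next 3 genes had means of 5480 ± 220 TPM (Rps15), 5478 ± 220 TPM (Rps2) and 5477 ± 192 TPM (Rpl4), which did not differ beyond their spread. Rps15 and Rps2 are proteins of the small subunit, and Rpl4 reaches into the exit tunnel. The highest 10 also held Rpl32 (3268 ± 204 TPM), Rpl36 (3077 ± 196 TPM) and Rpl41 (2851 ± 218 TPM).

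Among the lowest subunit genes, Rpl24, a protein at the interface between the subunits, had 79.4, 103, 108 and 91.0 TPM. Replicate 3 was highest and replicate 1 lowest. Rpl13a followed at 190, 180, 188 and 184 TPM. It is known also as a protein released from the ribosome in interferon-stimulated cells, and its libraries lay close together. Next came Rps15a (266 ± 21.3 TPM), Rpl35a (272 ± 32.3 TPM), Rpl39 (279 ± 28.7 TPM), Rps28 (319 ± 19.9 TPM), Rpl5 (341 ± 22.3 TPM), Rpl30 (344 ± 22.8 TPM) and Rpl36a (372 ± 20.4 TPM). Rpl24 stood well below all of these in every library.

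**Figure D1:**
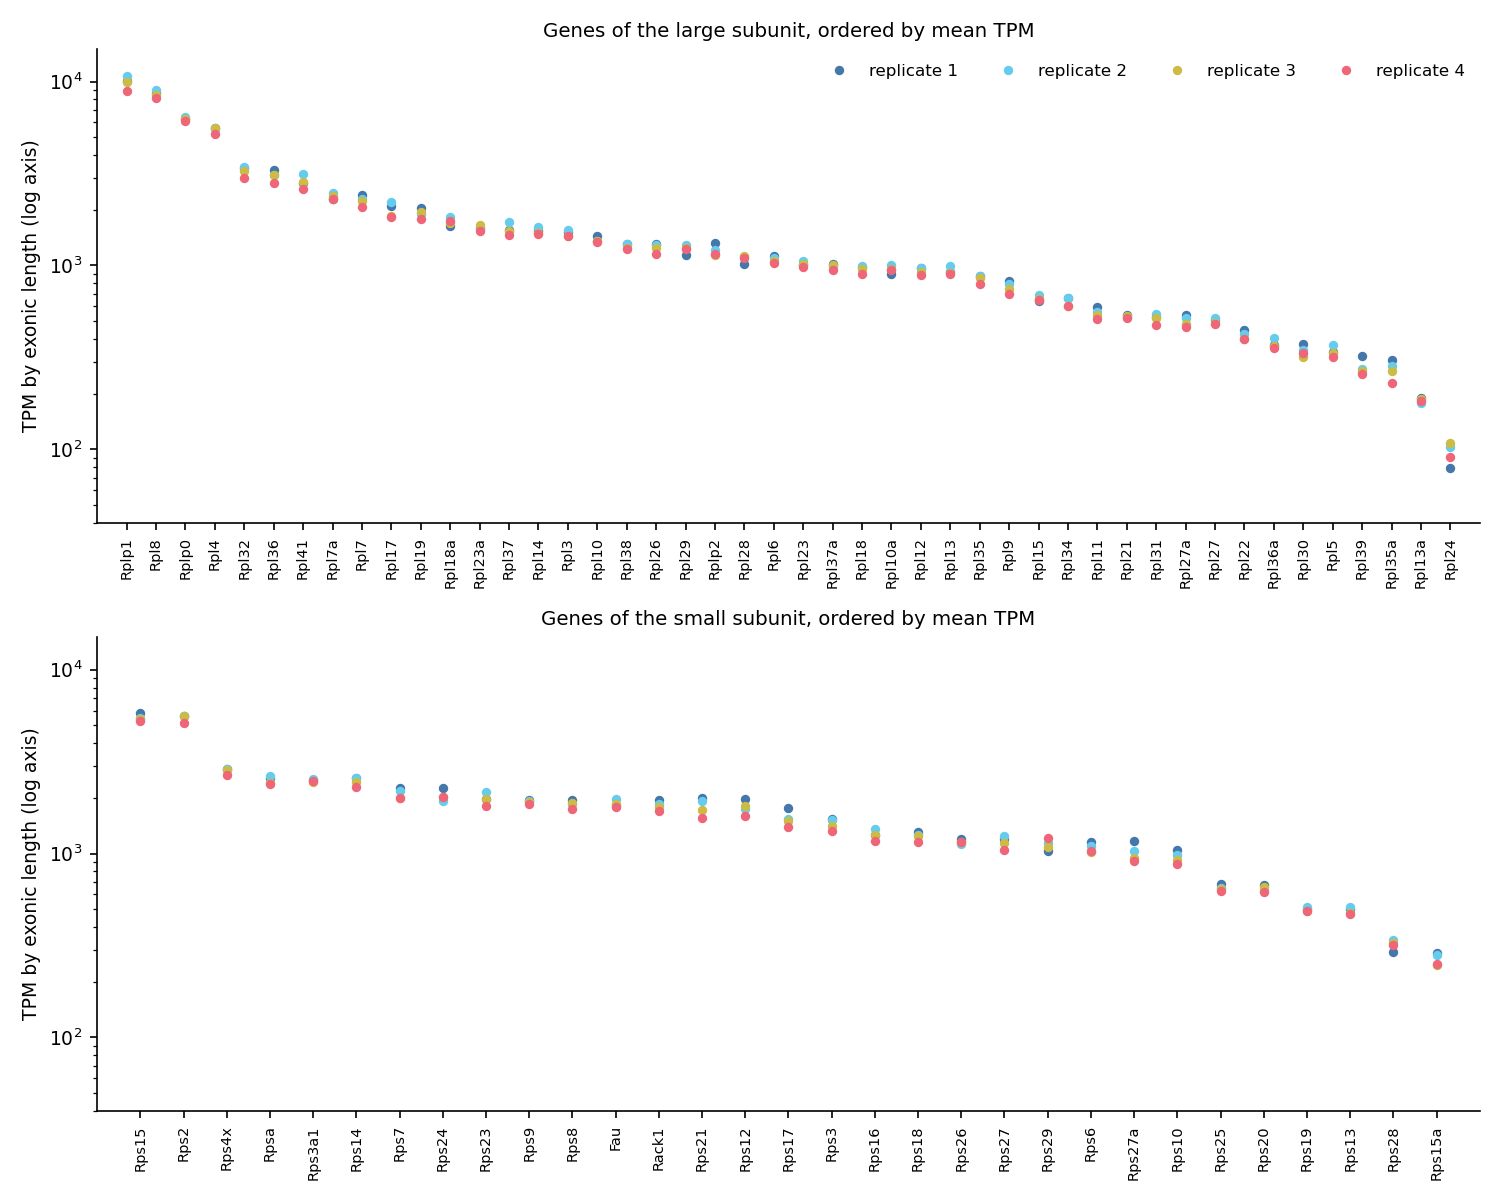
Level of each subunit gene (TPM by exonic length, log axis) in the 4 libraries, 1 point per library, with large subunit genes above and small subunit genes below, each ordered by mean (3 genes are left out). Points of a gene lie close together compared with the range over genes, in which Rplp1 has a mean of 9905 TPM and Rpl24 one of 95.3 TPM.

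Although nearly all the proteins, those of the P stalk apart, are needed in equal number, the mRNA levels of the 80 subunit genes spread widely. Their median was 1234 TPM, the 10th percentile 344 TPM and the 90th percentile 3096 TPM, a ratio of 9.01. The same ratio was 9.05, 8.59, 9.38 and 8.54 within replicates 1 to 4, so that each library showed it. Within 2-fold of the median lay 48 of the 80 genes. The range was wider among the large subunit genes (ratio 9.97, 27 of 47 within 2-fold of their own median) than among the small subunit genes (5.39, 24 of 33). This difference in width between the subunits was not tested.

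Levels of large and small subunit genes were then compared within libraries. The median over the 47 large subunit genes was 1013, 1057, 1017 and 978 TPM in replicates 1 to 4, and that over the 33 small subunit genes was 1811, 1749, 1719 and 1566 TPM. In each of the 4 libraries the large subunit median was the lower one. The difference of the medians of log2(TPM + 1), large minus small, was -0.75 ± 0.07 (SD, n = 4), and the exact two-sided sign-flip permutation test gave p = 0.125, the smallest that 4 libraries allow. Dividing by the length of the longest RefSeq mRNA of each gene in place of the exonic length gave -0.48 ± 0.08, again with the large subunit lower in all 4.

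The choice of length bears on the level of single genes more than on the overall range. Exonic length in the files joins all annotated exons of a gene, which for the subunit genes was 2.01 times the length of the longest RefSeq mRNA in the median and above 3 times in 16 of 80. By mRNA length the subunit genes had a median of 1742 TPM and a ratio of the 90th to the 10th percentile of 8.01. Rps19, a small subunit protein frequently mutated in Diamond-Blackfan anemia, moved from 496 ± 10.5 TPM by exonic length to 2539 ± 50.4 TPM by mRNA length, which is from rank 68 to rank 24. Rpl35a, another gene of that anemia, moved from 272 to 1297 TPM and left the lowest 10. Rpl18 moved from 958 to 3944 TPM, and Rps24 in the other direction from 2066 to 743 TPM. For Rps24 this rests on its longest RefSeq mRNA (1613 bases), since by its shortest (519 bases) it was at 2063 TPM. The 6 highest by mRNA length were Rps2 (6942 ± 262 TPM), Rplp1 (6845 ± 522 TPM), Rpl8, Rplp0, Rpl41 and Rpl4, in that order. The first of these was therefore Rps2 and not Rplp1, though the 2 did not differ beyond their spread. Rpl24 (100 TPM) and Rps15a (223 TPM) were among the 3 lowest. The value of Rps15a rests on an mRNA of 5179 bases, where the median of subunit genes was 832 bases. Across the 80 genes the 2 scales had a Spearman correlation of 0.75; both are built from the same counts, and genes are not independent replicates.

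**Figure D2:**
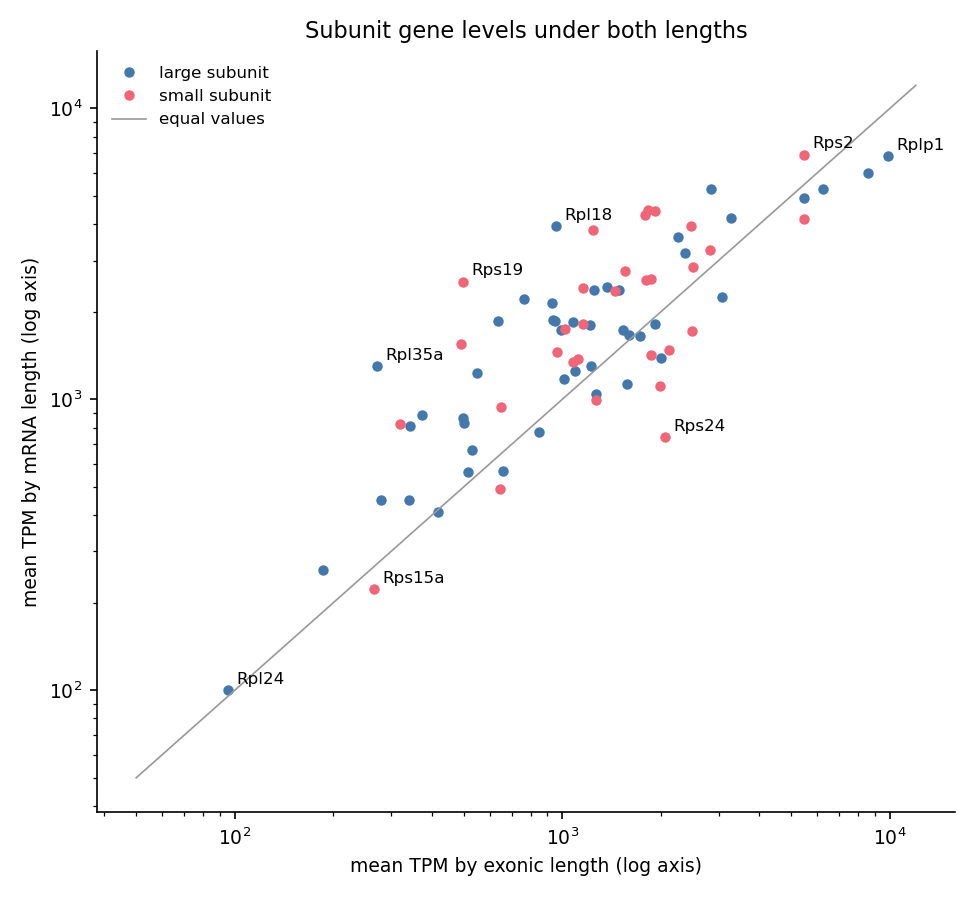
Mean level of subunit genes (3 are left out) over the 4 libraries by exonic length (horizontal, TPM, log axis) and by the length of the longest RefSeq mRNA (vertical, TPM, log axis), with the line of equal values. Rps19, Rpl35a and Rpl18 lie far above the line and Rps24 below it, while Rpl24 is at the bottom on both axes.

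Many subunit genes have near-identical copies in the genome, and the sources used here do not say how read pairs that map to several places were treated. Of the windows of 100 bases in a subunit gene's mRNA, a median of 58.7% occurred in no other annotated gene. The lowest share was that of Rps27 with 1.63%, followed by Rpl10 (8.43%) and Rpl5 (8.89%), and 6 genes had 100%, Rpl22 and Rps3 among them. The 46 genes with at least 50% such windows had a median of 1492 TPM and the other 34 a median of 1046 TPM by exonic length, and 1767 and 1708 TPM by mRNA length. Rpl24 had 19.9%. Rps2, with 35.3%, and Rps12, with 18.4%, were at 5478 and 1787 TPM. Across the 80 genes, the Spearman correlation of level with the share of unique windows was 0.30 by exonic length and 0.18 by mRNA length. The part of shared sequence in these levels was not tested.

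Parts of the ribosome with a function of their own differed in level among their members. In the P stalk, Rplp1 (9905 ± 775 TPM) and Rplp2 (1211 ± 88.8 TPM), which form dimers, differed far beyond their spread by exonic length, and by mRNA length they had 6845 and 1799 TPM. The proteins of the 5S particle, Rpl5 and Rpl11, which bind Mdm2 when ribosome assembly fails, were at 341 ± 22.3 and 550 ± 33.2 TPM. Both are below the median of subunit genes. The 8 genes around the exit tunnel ranged from Rpl39 at 279 TPM to Rpl4 at 5477 TPM, with a median of 1422 TPM.

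Rps27a, which encodes ubiquitin fused to a ribosomal protein, was at 1016 ± 112 TPM, and Fau, with a ubiquitin-like protein in that place, at 1861 ± 84.9 TPM. Rps27a had 1164, 1039, 951 and 909 TPM in replicates 1 to 4, highest in replicate 1. The X-linked subunit genes were Rps4x (2819 ± 96.6 TPM), Rpl10 (1373 ± 52.6 TPM), Rpl36a (372 ± 20.4 TPM) and Rpl39 (279 ± 28.7 TPM). Rps4x is a small subunit protein, and Rpl10 completes the large subunit late in its maturation. The 19 subunit genes of the list for Diamond-Blackfan anemia, an inherited failure of red cell production, had a median of 850 TPM and ran from 266 to 2116 TPM.

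Paralogues fell into 3 ranges of expression. Rpl22l1, Rps27l, Rpl7l1 and Rpl36al were between 144 and 440 TPM, Rpl39l and Rps27rt were low, and Rpl3l and Rpl10l were at or near 0. Each was below its parent gene in all 4 libraries for the 7 paralogue members paired with a parent. For Rps4l, which GENCODE lists as a transcribed processed pseudogene and which is therefore no member, the same held. Over these 8 pairs the exact two-sided sign-flip permutation test gave p = 0.125 for each, the smallest possible with 4 libraries, and an adjusted p (Benjamini-Hochberg) of 0.125.

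Rpl22l1 was at 156, 148, 144 and 129 TPM in replicates 1 to 4, and Rpl22 at 448, 425, 396 and 396 TPM. The groups of values did not overlap. Rpl22l1 made up 25.7 ± 0.86% of the sum of both (SD, n = 4), and the difference, Rpl22l1 minus Rpl22, was -1.52 ± 0.06 on the log2(TPM + 1) scale. This value rests on the length used: by mRNA length Rpl22l1 had 359 ± 27.0 TPM, Rpl22 408 ± 23.7 TPM, and the difference shrank to -0.19 ± 0.06, still negative in 4 of 4 libraries. Only 49.2% of the 100-base windows of Rpl22l1 were unique to it, against 100% for Rpl22.

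Rps27l, which is known as a target gene of p53, had 393, 387, 378 and 353 TPM, and Rps27 had 1202, 1240, 1139 and 1045 TPM. Rps27l was therefore 24.6 ± 0.62% of the sum by exonic length and 13.3 ± 0.38% by mRNA length. All 100-base windows of Rps27l were unique, whereas 1.63% of those of Rps27 were, so the level of the parent gene is the uncertain one. Rpl7l1, which belongs to the nucleolar assembly pathway of the large subunit, was at 451, 439, 452 and 419 TPM, 16.3 ± 0.47% of its sum with Rpl7 (2260 ± 129 TPM). By mRNA length that share was 7.79 ± 0.24%. Rpl36al, a gene with a single exon block in the files, had 321, 326, 296 and 268 TPM and made up 44.8 ± 1.5% of the sum with Rpl36a. By mRNA length its share was 37.9 ± 1.4%, below the 46.8 ± 1.1% of Rpl22l1 on that scale. The coding sequences of Rpl36al and Rpl36a were identical at 282 of 321 positions. Only 41.0% of the 100-base windows of Rpl36al and 16.4% of those of Rpl36a were unique, so this share is uncertain.

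Rpl39l was detected at a low level in each library, with 22, 25, 84 and 29 counted pairs, which are 1.64, 2.03, 5.36 and 2.60 TPM. Replicate 3 held the highest value. All its 100-base windows were unique in the annotation. It was 1.06 ± 0.64% of the sum with Rpl39 (0.469 ± 0.288% by mRNA length), whose own values were 321, 274, 267 and 256 TPM. Rpl3l, the muscle paralogue, had a single counted pair, in replicate 4, next to 1490 ± 51.0 TPM of Rpl3. Rpl10l had no counted pair in any library. A count of 3 pairs would have been at most 0.218 TPM, and Rpl10 (1373 ± 52.6 TPM) was at least 6107-fold higher than Rpl10l in each library against that limit.

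**Figure D3:**
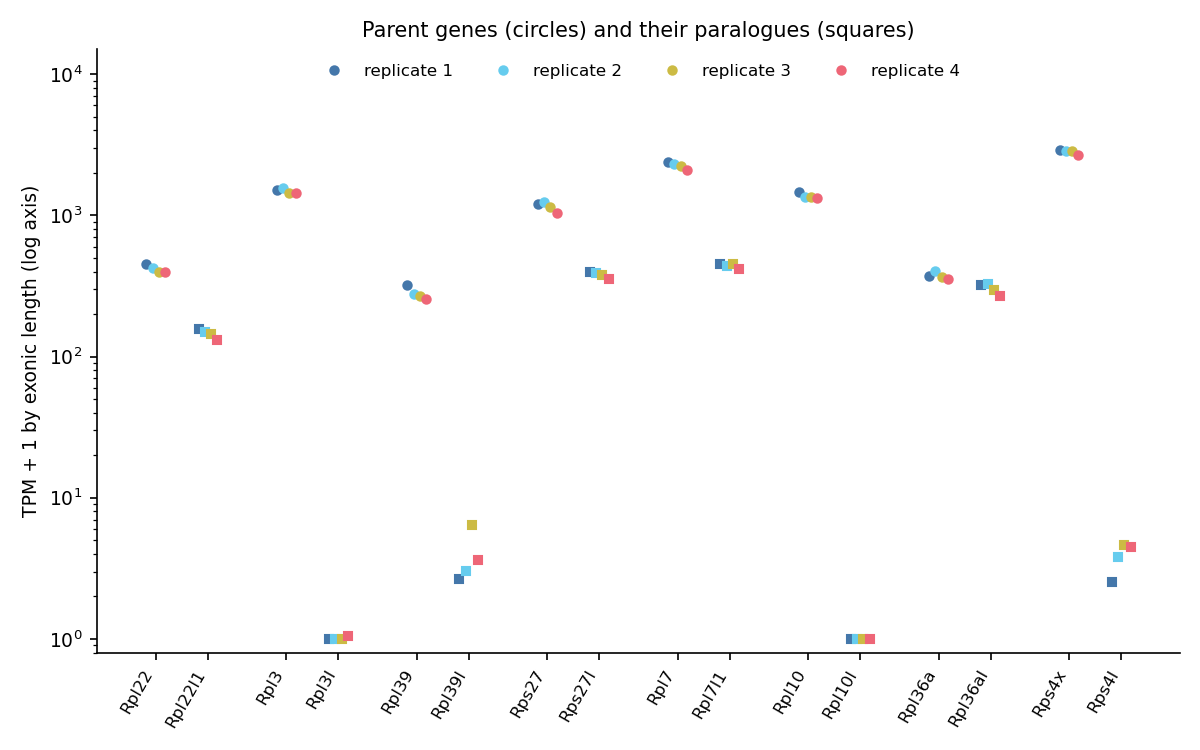
Level (TPM + 1 by exonic length, log axis) of 8 parent genes (circles) and their paralogues (squares) in the 4 libraries, 1 point per library. Rpl22l1, Rps27l, Rpl7l1 and Rpl36al lie between 129 and 452 TPM, Rpl39l and Rps4l between 1.51 and 5.36 TPM, and Rpl3l and Rpl10l at the bottom of the axis.

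The copies among the members whose coding sequence is nearly that of a parent gene carried few counts. Rps27rt, a single-block gene on chromosome 9 (114982366 to 114982739, minus strand), has a coding sequence identical to that of Rps27 over all 255 bases, and 10.5% of its 100-base windows were unique. It had 30.5, 40.7, 29.6 and 36.2 TPM. Rpl9-ps6 differs from Rpl9 at 1 of 579 coding bases and had 10.1 ± 1.17 TPM. Rpl10-ps3, identical to Rpl10 over 645 coding bases, had 2.99, 8.01, 7.25 and 6.40 TPM, lowest in replicate 1. The level of all 3 is uncertain, since pairs from the parent gene and from the copy cannot be told apart where the sequences are the same. Rpl9-ps1 and Rpl36-ps4, all of whose 100-base windows were unique in the annotation, were at 0 in every library.

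The members below 1 TPM in some library were 6 of 92. Besides Rpl3l, Rpl10l, Rpl9-ps1 and Rpl36-ps4 these were Rpl36a-ps1 (0.193, 2.32, 1.32 and 2.32 TPM) and Rps12-ps3 (1.26, 3.28, 0.859 and 1.06 TPM). The first was below 1 TPM in replicate 1 alone, the second in replicate 3 alone. Rps19bp1 was at 213 ± 14.4 TPM. Outside the members, the 284 pseudogenes whose symbol begins with Rpl or Rps took 0.0272 ± 0.0025% of counted pairs (SD, n = 4), and 69 of them had none.

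The spread of single members between replicates was then tested. Of 92 members, 86 had enough counts for edgeR's quasi-likelihood fit, whose residual spread was compared with the trend over all genes. None of the 86 passed an adjusted p of 0.05 (edgeR, Benjamini-Hochberg), where 28 of 12285 genes did (0.228%). On simulated counts the test called 59 of 100 genes given an added SD of 0.5 log2, and 89 of 100 given an SD of 1. A smaller spread can therefore be missed. At an unadjusted p under 0.05 there were 22 of the 86, against 5.42% of all genes tested, and 14 when replicate 1 was left out. When no filter on low counts was applied, 4 members passed the adjusted threshold, against 0.681% of 20867 genes: Rpl35a (adjusted p = 0.0090 by edgeR), Rps21 (0.017), Rps27a (0.032) and Rpl39 (0.047). DESeq2 marked Rpl35a alone among members as a dispersion outlier, against 0.403% of the same genes.

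Rpl35a had 307, 283, 266 and 230 TPM in replicates 1 to 4. Rps21, of the small subunit, had 2013, 1930, 1719 and 1566 TPM. In both genes, as in Rps27a and Rpl39, replicate 1 was highest and replicate 4 lowest. The 5 detected members with the largest SD of log2 CPM (counts scaled to a common library size) were Rpl39l (0.70), Rpl10-ps3 (0.62), Rps27rt (0.22), Rpl24 (0.20) and Rpl35a (0.20), the first 3 of them with low counts. Rpl24 was 1 of 7 subunit genes that were lowest in replicate 1. The 5 with the smallest SD included Rps26 (0.04), Rpl13a (0.04), Rps3a1 (0.04) and Rpl21 (0.05). Rps26 had 1193, 1125, 1152 and 1158 TPM.

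Much of the spread that the subunit genes had was shared among them. Expressed as log2 CPM minus the gene's own mean over the libraries, the median over the 80 subunit genes was 0.05, 0.06, -0.02 and -0.10 in replicates 1 to 4, whereas the median over all genes tested was within 0.01 of 0 in each. Replicate 4 was the lowest library for 71 of 80 subunit genes and for 73 of the 86 members tested, against 29.1% of all genes tested and 46.3% of the 1889 other protein-coding genes with a mean above or at 100 TPM. Replicate 1 or 2 was the highest for 77 of 80, against 46.2% of all genes tested. Other measures also set replicate 4 apart: its mitochondrial share of counts was 0.664%, against 0.505% to 0.558% in the others. Its summed B cell markers were the lowest (2.69 TPM), and Cd8a was at 0.225 TPM, against 0.831 to 1.06 TPM. Cd8b1 did not set it apart, with 60.1, 61.1, 53.3 and 55.5 TPM in replicates 1 to 4. The part of these measures in the pattern was not tested. The median SD of a subunit gene was 0.092 log2 and dropped to 0.050 once the median of the 80 genes was taken off each library. For the 1889 other genes at 100 TPM or more the median SD was 0.060. Among these, the 189 with an mRNA under 1000 bases had a median SD of 0.102. It dropped to 0.066 once their own median was taken off each library.

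The length of the mRNA moved with this pattern. Most subunit mRNAs are short, with a median of 832 bases. Of other protein-coding genes at 100 TPM or more, those with an mRNA under 1000 bases (189 genes) had medians of 0.05, 0.07, 0.01 and -0.12 in replicates 1 to 4, and 143 of them were lowest in replicate 4. Those with 4000 bases or more (359 genes) went the other way, with -0.03, -0.03, 0.01 and 0.05, and 49 were lowest in replicate 4. When each subunit gene was set against the median of other genes in the same class of mRNA length (10 classes of equal size), an alternative added after the data were seen, 21 of 80 were lowest in replicate 4 and the median there was -0.01. Replicate 1 or 2 was then the highest for 58 of 80 and replicate 3 for 3. The highest and the lowest library median then lay 0.050 apart, where they had lain 0.17 apart before. The median SD of a subunit gene was then 0.055 log2, and 0.054 once the median of the 80 genes was taken off each library. In this comparison by length class replicate 3 had the lowest median, -0.03, and replicate 1 the highest, 0.02. With no allowance for mRNA length, the library medians lay 0.082 apart when replicate 4 was left out. The 33 other short genes at an unadjusted p under 0.05 in the spread test were 17.5% of their class. The part of mRNA length in the pattern was not tested further.

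**Figure D4:**
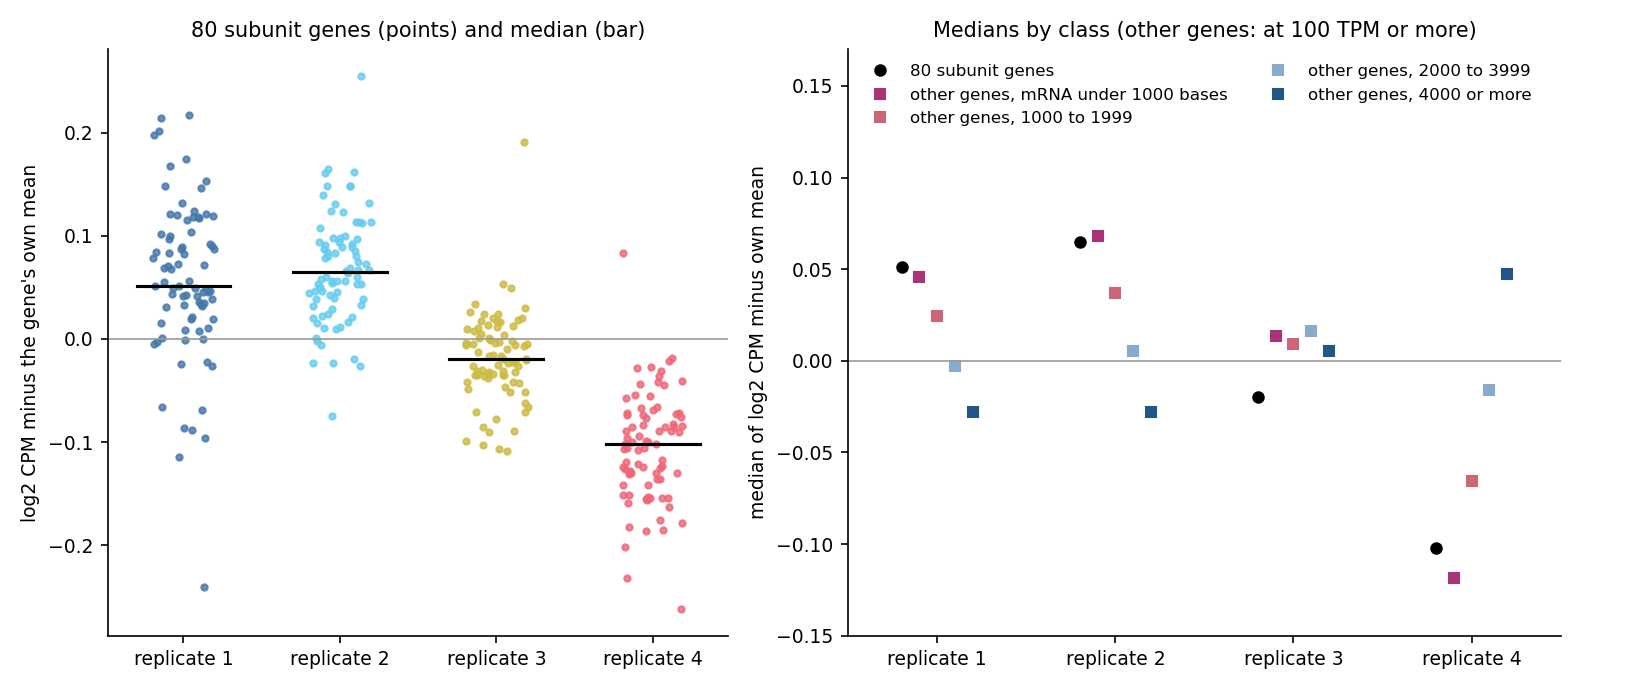
Left, log2 CPM minus the gene's own mean in each library for 80 subunit genes (points), with the median (bar). Right, the same median for the subunit genes (circle) and for other protein-coding genes at 100 TPM or more by mRNA length in bases (squares): other genes with short mRNAs were low in replicate 4 as the subunit genes were, and those with 4000 bases or more were high there.

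Genes that are regulated with ribosomal proteins or act on them were examined as 2 further lists, neither of which holds a member. All 16 genes of the list of other TOP mRNAs, mainly elongation and initiation factors, were detected, and none passed the spread test. Their medians were 0.05, 0.01, 0.01 and -0.07 in replicates 1 to 4. Of the 16, 10 were lowest in replicate 4, against 46.3% of other protein-coding genes at 100 TPM or more. By mRNA length that share ran from 75.7% (under 1000 bases) to 13.6% (4000 bases or more). The highest of the 16 were Eef1a1 (13578 ± 614 TPM), which brings aminoacyl-tRNA to the ribosome, and Eef2 (6863 ± 418 TPM), which drives translocation. Npm1 (3088 ± 62.6 TPM) and Eef1g (1359 ± 79.4 TPM) came next. Eef1a1 was above every ribosomal protein gene. Eef2 had 6457, 6577, 7070 and 7347 TPM, highest in replicate 4, opposite to most subunit genes. The 14 chaperones and assembly factors of single ribosomal proteins or subunits were also all detected, at a median of 184 TPM, and none passed. Against 29.1% of all genes tested and 46.3% of other protein-coding genes at 100 TPM or more, 9 of these 14 were lowest in replicate 4. The 4 highest were Nap1l1 (441 ± 21.6 TPM), a histone chaperone, Eif6 (421 ± 19.1 TPM), which keeps the subunits apart, Grwd1 (394 ± 15.5 TPM), the chaperone of Rpl3, and Bccip (273 ± 6.43 TPM), the chaperone of Rpl23.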

How the data were processed

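The 4 libraries are of mouse T cells. For each gene the authors deposited a raw count of read pairs and the exonic length. Per the file headers, featureCounts 1.4.6-p4 counted pairs on GENCODE M13 exons, reverse-stranded, both mates required, from STAR alignments; the build is mm10 per the labels. No option for multi-mapping pairs is recorded. The assay is labelled total RNA-seq, but the labels link a library protocol named for PolyA+ RNA, and which applies was not settled.

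Identifiers without version were matched to GENCODE M21 (50376 of 50600). TPM came from the deposited counts over exonic length, log2 ratios from TPM plus a pseudocount of 1. Uniqueness and coding sequences came from GENCODE M21 transcripts. Spread was tested with edgeR 4.0.16 (R 4.3.3; TMM, filterByExpr, intercept-only, residual spread on 3 degrees of freedom against the trended prior, checked on simulated data), with DESeq2 1.42.0 as an alternative. Log2 CPM used a prior count of 2. Pairs and subunits were compared by exact sign-flip permutation. Python 3.11.15 and Biopython 1.88 were used.

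Named genes were all paralogues, the 10 highest and 10 lowest subunit genes, the P stalk, 5S, X-linked and ubiquitin fusion genes, the 5 largest and 5 smallest spreads, members under 1 TPM in some library, and the 4 highest of other lists. Genes named for a shift with length or for sequence sharing (Rps19, Rpl18, Rps24, Rps12, Rps3) or for a call in an alternative (Rps21) were chosen after their values were seen. The members and lists were chosen with earlier results of these data known. Values of some genes set by this rule are not reported here.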

Additional observations from a re-analysis of the deposited data

Results flagged for a closer look

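Of 94 values examined across the 4 libraries (the TPM of members and subunit genes, the share of counts taken by members and the mitochondrial share), 4 had 1 library apart from the other 3 by more than Dixon's 95% critical share of the whole range. Chance alone sets about 1 in 20 such groups apart. Rps2 was at 5148 TPM in replicate 4 and between 5568 and 5599 TPM in the others. Rps4x was at 2676 TPM in replicate 4 and between 2846 and 2879 TPM in the others; both are subunit genes, low in the library in which most subunit genes were lowest. Rps12-ps3, which shares all its 100-base windows with other genes, was at 3.28 TPM in replicate 2 and between 0.859 and 1.26 TPM in the others. Rpl3l was at 0.0453 TPM in replicate 4, from 1 counted pair, and at 0 in the others.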

How the results depend on the processing

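Of 101 recomputed values, 93 kept their direction and their side of the threshold, or stayed within the limits set for values without a test. None reversed. The 93 include every setting of the paralogue pairs and of the subunit comparison. Their p cannot pass 0.05, so only their direction could have changed. Members past the adjusted threshold for spread numbered 0 in the edgeR fit reported, 4 with no filter on low counts and 0 with any replicate left out. DESeq2, which gives a mark and no adjusted p here, marked 1 member as a dispersion outlier. The ratio of the 90th to the 10th percentile of subunit genes was 9.01, 8.01 by mRNA length, 8.05 by the shortest RefSeq mRNA (an alternative chosen after seeing the data), 10.04 for genes with mostly unique sequence, and 8.80 to 9.15 with each replicate left out. The distance between the library medians of subunit genes was 0.17 log2, 0.050 with the mRNA length trend taken off (chosen after seeing the data), and 0.082 to 0.18 with each replicate left out, lowest without replicate 4. Rpl22l1 minus Rpl22 went from -1.52 to -0.19 by mRNA length and to -0.11 by the shortest RefSeq mRNA. Exact sign-flip permutation tests over 4 libraries cannot go below p = 0.125, so their p says nothing of stability. No paired analysis was possible because the samples form a single group. Low counts limit Rpl39l and the copies named with "ps".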
